A study of Drosophila melanogaster with 2 samples.

Results

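Binding of the Hmx-eGFP fusion protein was described at 10 Polycomb group genes, ph-p, ph-d, Pc, Psc, Sce, E(z), esc, Su(z)12, Scm and pho, of 13945 protein-coding genes on the chromosome arms. The set was selected on its measured signal as well as its function: it was drawn up because ph-p holds one of the strongest nuclear peaks, so the level at ph-p is a description and was not tested. A region was assigned to a gene when its summit lay in the annotated gene body or in the 1 kb upstream of it.

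The values came from ChIP-seq, the sequencing of DNA recovered by chromatin immunoprecipitation, on whole mixed-sex Drosophila melanogaster embryos aged 0 to 24 h. The embryos were of the Hmx-MiMIC-GFP strain, in which an eGFP exon placed in an intron of Hmx, a homeodomain transcription factor gene, yields a fusion protein. The precipitating antibody was against GFP in the sample descriptions, while the antibody field named Hmx. Both samples, biological replicates 2 and 3, belonged to 1 group with no second condition. Every cell type of the embryo was pooled in each sample, and a control alignment, against which the authors called regions, was not analysed here. The labels did not say whether endogenous untagged Hmx was also present.

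Polycomb group proteins keep developmental genes silent through rounds of cell division. The PRC2 complex methylates a histone at silenced genes, the PRC1 complex binds that mark, compacts chromatin and ubiquitinates another histone, and the DNA-binding protein Pho, in the PhoRC complex, helps to bring them to Polycomb response elements. In the fly embryo these proteins maintain the boundaries of Hox gene expression. The values reported are Hmx-eGFP regions at the genes that encode these proteins, not the places where Polycomb proteins bind.

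The sequences at the summits of the strongest member regions outside untranslated exons are shown because the ph-p peaks had A and T-rich centres. The window of a ph-d region of signal 65.8, stronger than the pho region shown, overlaps the first exon of ph-d and is not printed. Its G+C content was 51.5%. Each is the gene strand, which is the minus strand of dm6, read 5′ to 3′ over the summit and the 50 bp either side of it. Capitals mark runs of 6 or more A or T letters. The sequence is from the RefSeq copy of the dm6 assembly.
ph-p, strongest peak, chrX:2137275-2137375: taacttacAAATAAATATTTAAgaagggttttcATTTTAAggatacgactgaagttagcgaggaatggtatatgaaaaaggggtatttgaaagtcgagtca
ph-p, intron peak, chrX:2135337-2135437: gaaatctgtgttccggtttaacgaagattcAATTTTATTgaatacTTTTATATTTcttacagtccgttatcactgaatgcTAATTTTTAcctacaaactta
ph-d, upstream peak, chrX:2123981-2124081: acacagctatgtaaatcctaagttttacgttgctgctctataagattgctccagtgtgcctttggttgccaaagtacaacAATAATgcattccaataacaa
pho, start region, chr4:1181675-1181775: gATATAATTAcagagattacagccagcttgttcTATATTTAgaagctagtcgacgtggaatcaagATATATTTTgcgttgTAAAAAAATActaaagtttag
The window at the strongest ph-p peak held 2 such runs, the longest of 14 letters, and the window at the intron peak held 3 runs, the longest of 10. The ph-d window held 1 run of 6 letters. The pho window, from a region below the reproducible set, held 4 runs with the longest of 10.

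The reproducible set was the authors' optimal list passing the irreproducible discovery rate (IDR) procedure, with 1595 nuclear regions in dm6 coordinates. Their deposited signal, a value on the caller's own scale that ranks regions only within a list, ran from 78.4 to 1041 with a median of 110.5. Of the 10 genes, 2 had an IDR summit, ph-p and ph-d, which is 20% against 12.2% of all protein-coding genes. The member genes are longer than most, with a median locus of 6390.5 bp against 2166 bp for all protein-coding genes. Among the 7431 genes with a locus between those of the shortest and longest member, 13.6% had an IDR summit. Among the 3249 genes of 4063 to 22410 bp, a range taken from other listed genes, it was 19.1%. Neither range matches the member lengths gene by gene. Pc, Psc, Sce, E(z), esc, Su(z)12, Scm and pho had none. Since the set was assembled around the ph-p peak, the 2 of 10 is not evidence that the group was preferred.

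ph-p encodes Polyhomeotic proximal, a PRC1 subunit, and held 3 of the 4 IDR peaks at these genes. The gene lies on the minus strand of chromosome X at 2126210–2138371, with annotated transcript starts at 2138371, 2136855 and 2136622. Its strongest peak, X:2137193–2137516 with the summit at 2137325, had a signal of 648.8 in the pooled list and ranked 10 of 29988 nuclear regions. In replicate 2 the signal was 338.7 and in replicate 3 it was 312.9, each at rank 9 of its own list. The summits of the replicates lay 22 bp and 4 bp from the pooled summit. The peak therefore held nearly the same place in the order of both samples. It sat 470 bp upstream of the middle start, inside the first intron of the transcript that begins at the outermost start.

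The second ph-p peak, X:2137731–2138039, had its summit at 2137965 in the 5′ UTR exon of that longest transcript, 406 bp downstream of the outermost start. Its signal was 250.45 in the pooled list, at rank 134, and it was 140.1 in replicate 2, at rank 110, and 113.45 in replicate 3, at rank 145. The third peak, X:2135169–2135604, had its summit at 2135387 in the long intron shared by the transcripts, 1235 bp downstream of the innermost start. It had a signal of 159.7 at rank 363, with 86.2 at rank 375 in replicate 2 and 74.3 at rank 366 in replicate 3. The 3 peaks kept one order in every list. The strongest was 2.59 times the second in the pooled list, 2.42 times in replicate 2 and 2.76 times in replicate 3. The second was 1.57, 1.63 and 1.53 times the third in the same lists.

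ph-p was 1 of 55 protein-coding genes, or 0.394%, with 3 or more IDR summits. In 6 of these genes, ph-p included, 3 summits fell within 2578 bp or less, the span of the ph-p summits. By its strongest IDR signal ph-p ranked 15 among the 1700 genes with an IDR summit, whose median strongest signal was 117.7. Its strongest and second peaks were 324 bp and 309 bp wide, against the 436 bp shared by most IDR regions. Narrower regions made up 10.5% of the IDR set and had a median rank of 88.5, so narrow regions were among the strong ones across the set. ph-p also had 5 weaker pooled regions, with signals from 22.5 to 40.2.

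**Figure D1:**
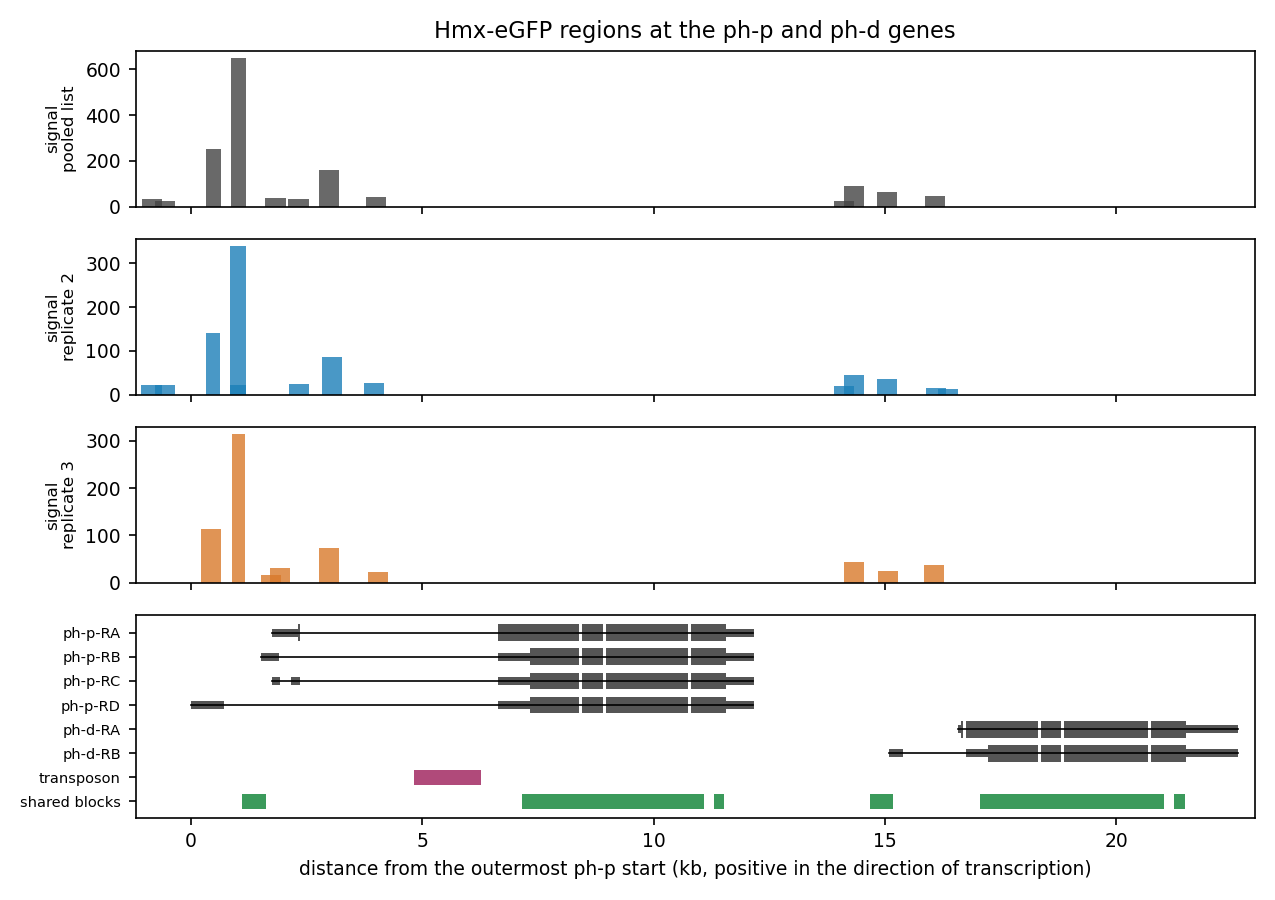
Deposited region signal (bar height, caller's own scale, separate for each list) at ph-p and ph-d in the pooled list and in replicates 2 and 3, against distance from the outermost ph-p start in kb, with bar width equal to region width. The bottom panel shows transcripts (thick boxes coding, thin boxes untranslated), an annotated transposon and the sequence blocks that both genes share. In each list the 3 tallest bars fall around the ph-p starts, with pooled signals of 648.8, 250.45 and 159.7.

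ph-d, Polyhomeotic distal, is the tandem paralogue of ph-p and encodes a closely related PRC1 subunit. The gene occupies X:2115727–2123286 on the minus strand, and 2923 bp separate its body from that of ph-p. Its IDR peak, X:2123813–2124248 with the summit at 2124031, lay 745 bp upstream of the outermost ph-d start, between both genes and 2179 bp beyond the end of ph-p. The signal was 89.3 at rank 1216 in the pooled list, 44.9 at rank 1514 in replicate 2 and 43.55 at rank 1244 in replicate 3, with all 3 summits at the same base. The ph-d peak was thus in the weaker part of the IDR set, at rank 1216 of 1595 and 0.81 times its median signal. The strongest ph-p peak was 5.87 times that median. The ratio of the strongest ph-p signal to the strongest ph-d signal was 7.27 in the pooled list, 7.54 in replicate 2 and 7.19 in replicate 3.

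The next ph-d region, X:2123111–2123546 with its summit 43 bp upstream of the outermost start, fell outside the IDR set. Its pooled signal was 65.8 at rank 2277, with a deposited q value of 1.901%. Replicate 2 gave 36.9 at rank 2311 and replicate 3 gave 25.7 at rank 5694. Another ph-d region, in the intron of the longer transcript, had a pooled signal of 48.2 at rank 4933, and its replicate ranks were 20299 and 1913, far apart from each other. Among the member regions, those nearest the lowest IDR signal of 78.4 on either side were thus both at ph-d, with 89.3 and 65.8.

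Sequence shared between the paralogues bears on which of them a read came from, and whether multiply mapped reads were kept is not given in the sources used here. Alignment of the loci gave 3 blocks, of 3999 bp at 94.4% identity over most of the coding region, 519 bp at 91.3% near the starts and 231 bp at 91.3% near the coding end. All 4 IDR summits lay outside the blocks, at 64 bp for the strongest ph-p peak, 704 bp and 1368 bp for the other ph-p peaks and 338 bp for the ph-d peak. Of the strongest ph-p region, 69 bp or 21.3% lay in the block at the starts. Its summit was 42 bp from that block in replicate 2 and 68 bp in replicate 3. Whether some of its reads came from ph-d was not tested. The weaker ph-d region of signal 65.8 had its summit inside the same block and 82.1% of its bases in it, so its assignment to ph-d rather than ph-p is uncertain. No summit of a pooled member region lay inside an annotated transposon, whereas replicate 2 summits at pho, of signal 25.2 and 18.7, did.

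Weaker regions were taken from the pooled list, which held peaks and background, so they may be background and are not called binding. In the pooled list 8 of the 10 genes had a region, against 55.9% of all protein-coding genes, with 30 regions in all including the 4 IDR peaks. That is 0.363 regions per kb of locus and upstream sequence at the members, against 0.256 at all protein-coding genes. The member figure rests largely on ph-p, for which the set was drawn up, and on pho, with 8 regions each. Their densities were 0.608 per kb at ph-p and 0.787 at pho, which lies on chromosome 4, where the density was 0.564. In the list of replicate 2, 9 of 10 genes had a region, against 61.4% of all genes, and in that of replicate 3 it was 6 of 10, against 55.6%. At a pooled q value below 5% the count was 3 of 10, namely ph-p, ph-d and pho, against 19.6%. Restricted to as many strongest regions as the IDR set holds, 3 of 10 genes had one in replicate 2, against 12.6%, and 2 of 10 in replicate 3, against 11.8%.

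**Figure D2:**
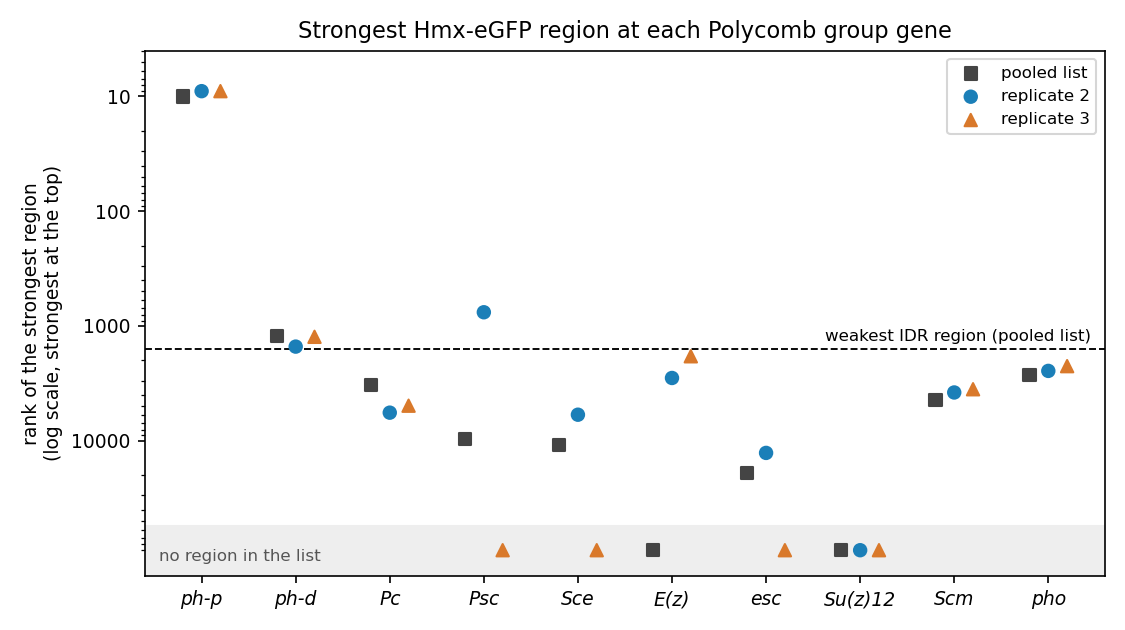
Rank of the strongest region (log axis, strongest at the top) at each Polycomb group gene in the pooled list, replicate 2 and replicate 3, with genes ordered by complex and the grey band holding genes with no region in a list. The dashed line marks the weakest nuclear IDR region. ph-p stands at ranks 9 and 10 in all lists, and ph-d is the other gene above the line in the pooled list.

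Pc encodes Polycomb itself, the PRC1 subunit whose chromodomain binds the methylated histone. The gene lies at 3L:21306138–21318020, and a single annotated transposon takes 76.6% of that length. Its strongest pooled region had a signal of 56.65 at rank 3272, in the 3′ UTR and 2162 bp downstream of the start. A region 209 bp upstream of the start, with 41.2 at rank 7443, was also within reach of Rab26 and lncRNA:CR45674. Both regions had summits within 250 bp in each replicate, at signals between 23.4 and 26.8. The strongest Pc region of each replicate was in the 3′ UTR, at rank 5698 in replicate 2 and at rank 4955 in replicate 3.

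Psc, whose product Posterior sex combs is a RING-domain partner in PRC1, lies at 2R:12965997–12980994 and is the longest member. Its strongest pooled region, 705 bp upstream of the outer start, had 37.4 at rank 9695, with 25.2 at rank 5857 in replicate 2 and no region assigned in replicate 3. Replicate 2 alone listed an intron region 5071 bp downstream of the nearer start with a signal of 63.2 at rank 760. The nearest pooled summit was 4908 bp away and the nearest summit of replicate 3 was 8476 bp away. This was the third gene in the replicate 2 count, and it rests on that sample alone.

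Sce encodes Sex combs extra, the ubiquitin ligase subunit of PRC1, and at 1.6 kb (3R:27680431–27682029) is the shortest member. Its 1 pooled region lay 29 bp upstream of the start, with 35.8 at rank 10912 and 25.1 at rank 5937 in replicate 2, and no region was assigned in replicate 3. Of these 5 PRC1 members, ph-p and ph-d were the ones with an IDR peak.

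Of the PRC2 genes only esc had a region in the pooled list. E(z), the histone methyltransferase of the complex (3L:10634575–10638130), had no region in the pooled list. Replicate 2 nevertheless listed a region there with 34.0 at rank 2841, its summit 62 bp upstream of the outer start, and replicate 3 listed one with 37.4 at rank 1838, its summit 52 bp downstream. These summits were 114 bp apart, and the starts of E(z) and its neighbour Cnep1r2 are 16 bp apart, so the regions cannot be given to 1 gene alone. Replicate 3 also listed a weak region 865 bp upstream of the outer start, with 15.0 at rank 25192, in reach of Cnep1r2 and CG18628. Of the 3000 strongest regions, 156 in replicate 2 and 47 in replicate 3 lacked a pooled summit within 500 bp. Only 22 of those in replicate 2 and 21 in replicate 3 had a summit in the other replicate, as at E(z). What removed them from the pooled list is not given in the sources used here.

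esc, which encodes the WD-repeat subunit that PRC2 needs for its activity, lies at 2L:11827204–11829405 within the gene Pde1c. Its 1 pooled region, 322 bp upstream of the start, had 28.2 at rank 19181, with 18.3 at rank 12776 in replicate 2 and no region assigned in replicate 3. Su(z)12, the zinc-finger subunit of PRC2 (3L:19918242–19923462), had no region in any of the lists. The files list regions only, so no level can be given for it.

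Scm encodes Sex comb on midleg, a Polycomb group protein that binds Polyhomeotic and associates with PRC1. At 3R:9633359–9637611 it had 3 pooled regions. The strongest lay 425 bp upstream of the start, in reach of Dh44 as well, and had 50.3 at rank 4400, with 21.9 at rank 8331 in replicate 2 and 29.7 at rank 3562 in replicate 3. In replicate 2 a region at the 3′ end, shared with SpdS and asRNA:CR45053, was stronger, with 30.0 at rank 3800.

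pho encodes Pleiohomeotic, the DNA-binding subunit of PhoRC, and lies on chromosome 4 at 1172469–1181628, where 7 annotated transposons take 48.8% of its length. It came next after ph-d by its strongest pooled region, with 61.45 at rank 2662 and a deposited q value of 2.936%. That summit lay 97 bp upstream of the start, and the same base was the summit in replicate 3, with 34.7 at rank 2241, while replicate 2 had summits 87 bp away, with 23.7 at rank 6878, and 116 bp away, with 28.1 at rank 4467. The strongest replicate 2 region was at the 3′ end of the gene, with 36.0 at rank 2465, where replicate 3 had 16.5 at rank 20531. The start region was thus the stronger end in replicate 3, and the 3′ end had the higher value in replicate 2. pho had 8 pooled regions, as many as ph-p, or 0.787 per kb against 0.564 per kb over chromosome 4 and 0.224 per kb over all arms. At 3 of the 8 pho regions similar sequence was found elsewhere on the arms, the longest match covering 325 bp at 79.4% identity.

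**Figure D3:**
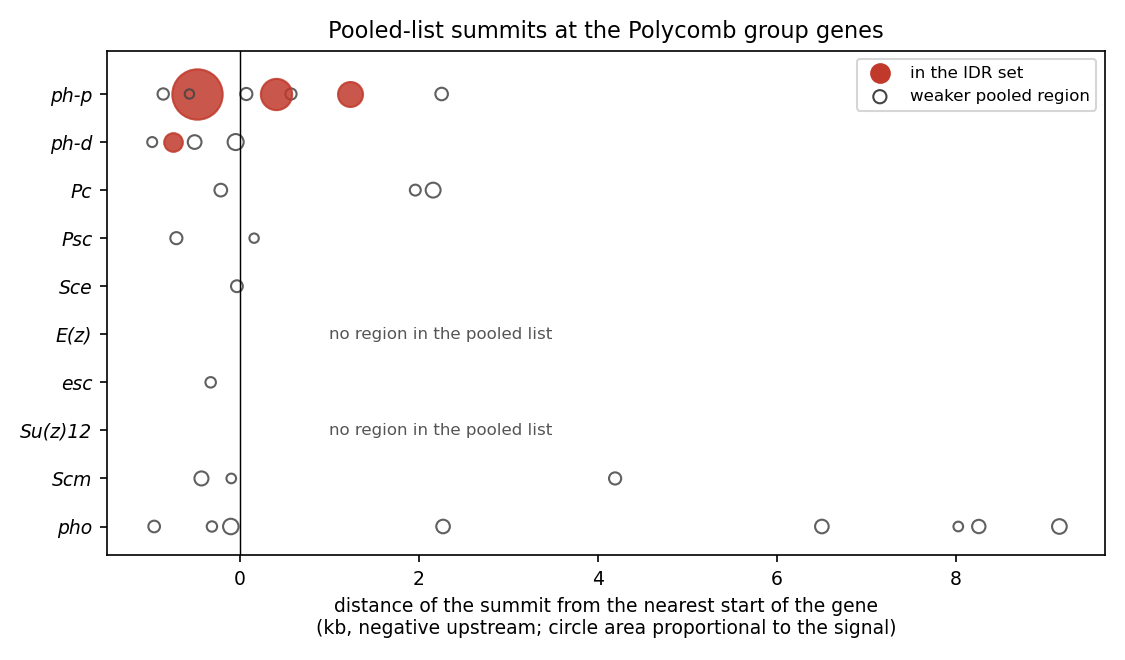
Position of each pooled-list summit at the 10 genes relative to the nearest start of its gene (kb, negative upstream), with circle area proportional to the deposited signal. Filled circles are the 4 regions in the IDR set, at ph-p and ph-d, and open circles are the 26 weaker regions, of signal 22.5 to 65.8.

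By place, 14 of the 30 pooled summits were upstream of the gene, 8 were in introns, 4 in 3′ UTRs, 3 in 5′ UTRs and 1 in a coding exon. Within 500 bp of a start of their own gene lay 12, or 40%, of the member summits, against 26.7% of the 28250 assignments of pooled regions to protein-coding genes. All 8 genes with a pooled region had one within that distance, and in 5 of them it was the strongest. The share per gene over all protein-coding genes is not given here, so these counts are a description only. ph-d, Pc and Psc were the genes whose strongest pooled region lay farther from a start.

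Member regions were compared with all regions of the same class, IDR or weaker, and strength was not matched within a class. The IDR procedure selects for regions found in both replicates, so a match there was favoured by the choice of the set. All 4 IDR peaks had a summit within 250 bp in both replicates, against 97% of all nuclear IDR regions. Of the 26 weaker member regions, 13, or 50%, had one in both, against 44% of all weaker pooled regions. A replicate summit could match more than 1 pooled region. The ph-d region of signal 25.5, for example, was matched in replicate 3 by the summit of the ph-d IDR peak, 230 bp away. A further 10 were matched in replicate 2 only and 1 in replicate 3 only, while over all weaker pooled regions these shares were 23.8% for replicate 2 only and 26.7% for replicate 3 only. Psc, Sce and esc had no weaker region matched in replicate 3, so what is listed at these 3 genes rests on replicate 2 and the pooled list.

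The G+C content within 50 bp of the summit was low at the ph-p peaks. It was 31.7% at the strongest ph-p peak, 27.7% at the second and 28.7% at the third, against flanks 300 bp away of 49.0%, 44.1% and 54.5%. Each ph-p summit was thus at least 16.4 percentage points below its flanks. Lower windows, of 19.8%, were centred 600 bp upstream of the strongest ph-p summit, 50 bp downstream of the second and 650 bp upstream of the third. The windows named for the strongest and the second peak overlap, in the same stretch beside the second summit. The window named for the third lies at the summit of a weaker ph-p region, of signal 31.8 and 24.8% G+C. At ph-d the summit window had 37.6% against 42.1% in the flanks. That value is higher than the upper quartile of 34.7% over all nuclear IDR windows. The lowest window near the ph-d summit, of 9.9%, was centred 150 bp upstream of the summit. The median over the 4 member IDR windows was 30.2%, against 29.7% over all 1595 nuclear IDR windows, so low G+C content at the ph-p peaks was shared with the whole set. The weaker member regions had a median of 30.7%, against 32.7% over all weaker pooled regions. They ran from 21.8% to 51.5%, the highest being the ph-d region of signal 65.8, with 45.0% in its flanks. At the pho start region the summit had 30.7% and the flanks 30.2%, with no dip.

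**Figure D4:**
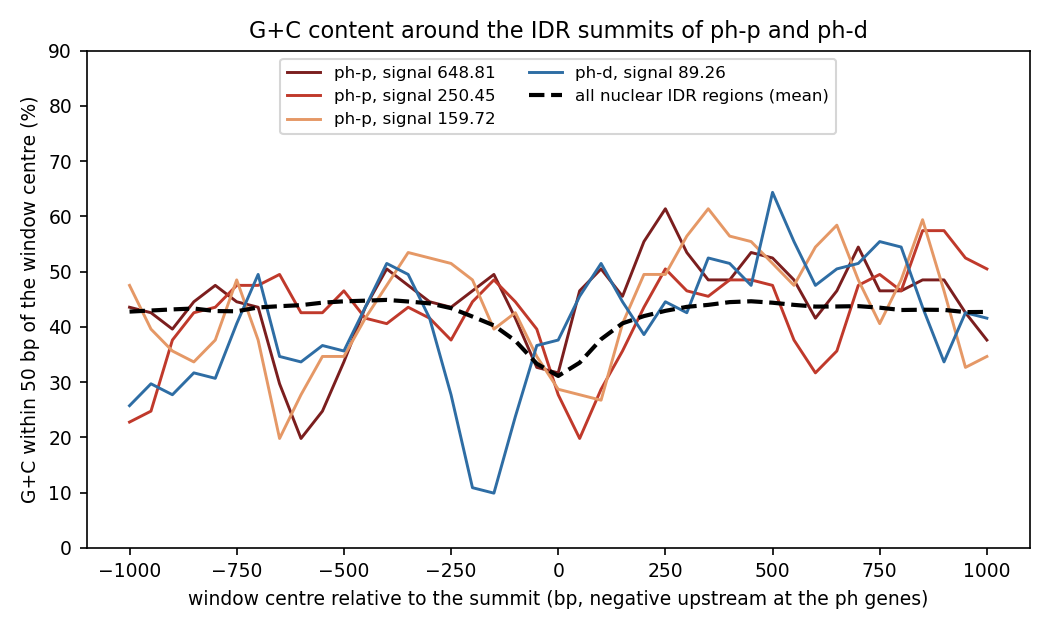
G+C content (%) within 50 bp of points at each distance from the summit (bp, negative upstream on the gene strand) for the 3 ph-p IDR peaks, the ph-d IDR peak and the mean of all 1595 nuclear IDR regions. The ph-p lines fall to 31.7% or lower at the summit near the dashed mean, but each has its lowest value, 19.8%, away from its own summit. For the strongest and the second peak these lowest values come from the same stretch, beside the second summit. The ph-d line is lowest, at 9.9%, 150 bp upstream of its summit.

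Short sequence motifs were looked for in the same windows on both strands, as a description. They were the Pho core GCCAT, the GAGA factor site GAGAG, the DRE core TATCGATA, the homeodomain core TAATTA and the Hmx-type core AAGTG. TATCGATA and TAATTA read the same on both strands, and no motif contains another. None of the 5 was present in the 4 member IDR windows. Over all nuclear IDR windows the shares were 12% for GCCAT, 7.9% for GAGAG, 1.25% for TATCGATA, 11.2% for TAATTA and 21.4% for AAGTG. In 19253 promoter windows of the same length, directly upstream of annotated starts, they were 17.3%, 15.5%, 5.14%, 5.27% and 22.5% in that order. With 100 bp taken either side, AAGTG appeared at the strongest ph-p peak and no other motif at any of the 4. The 26 weaker member windows did hold matches. AAGTG was in 11 of them, or 42.3%, at ph-p, ph-d, Pc, Sce, esc, Scm and pho, against 24.2% of all weaker pooled windows. GCCAT was in 4, or 15.4%, against 13.7%, GAGAG in 3, or 11.5%, against 7.88%, and TAATTA in 3, or 11.5%, against 10.8%. One of the TAATTA matches was in the window printed for the pho start region. TATCGATA was in none, against 0.666%. These shares were not tested.

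Other genes of the Polycomb and Trithorax systems were read from 5 lists of known components and targets, 68 genes in all, of which 18 had an IDR summit, or 26.5% against 12.2% of all protein-coding genes. These loci are long, with a median of 9319 bp, and 10 of the 18 strongest summits lay in introns. Within 1 kb of any start 11 of the 68 had an IDR summit, or 16.2%, against 10.4% of all protein-coding genes. Among the 34 genes between the quartiles of the listed locus lengths, 4063 and 22410 bp, 7 had one, or 20.6%, against 19.1% of all protein-coding genes in that range, a comparison chosen after the counts were seen. The shares are descriptions and were not tested. Those of the single lists that follow were not compared at like locus length. Of 9 other PRC1 and PRC2 subunits 2, or 22.2%, had an IDR summit. They were the PRC2 cofactor jing, with 93.2, and the histone demethylase gene Kdm2, with 127.2, both in introns. Of 8 PhoRC, PR-DUB and other Polycomb group genes 3, or 37.5%, had one, all upstream of the start. They were Sfmbt, the partner of Pho in PhoRC, with 96.1, the deubiquitinase gene caly, with 118.3, and mxc, whose product is a scaffold of the histone locus body, with 101.9.

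Genes for factors that bind Polycomb response elements had a median locus of 8079.5 bp, against 2166 bp for all protein-coding genes. Against 12.2% of all protein-coding genes, 50% of these, or 4 of 8, had an IDR summit. Trl, encoding the GAGA factor, held 4 of them, the strongest of 530.8 at rank 17, in an intron 1495 bp from a start. Dsp1, an HMG-box protein gene, had 2, the stronger of 217.6 at rank 184. grh, encoding Grainyhead, had 1 of 142.1, and psq, encoding Pipsqueak, had 1 of 95.5. Trl was the gene closest to ph-p in strength among all the listed genes, and ph-p had the strongest peak of the 20 with an IDR summit.

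Among Trithorax group genes, at a median locus of 7785 bp, the share with an IDR summit was 33.3%, against 12.2% of all protein-coding genes. Of these 24 genes, whose products keep genes active against Polycomb silencing, 8 had one. The strongest were at osa, a subunit gene of the Brahma remodelling complex, with 307.3 at rank 76, at trx, a histone methyltransferase gene, with 245.6 at rank 144, and at brm, the remodelling ATPase gene, with 185.8 at rank 260. The others were fs(1)h, a bromodomain gene, with 117.6, nej, the CBP acetyltransferase gene, with 114.5, the Mediator gene skd with 93.2, the COMPASS subunit gene Rbbp5 with 82.6 and tna with 81.6. Rbbp5 and tna were the only listed genes with an IDR summit whose strongest peak was below that of ph-d. Of 19 well-known Polycomb target genes, the longest loci of the lists at a median of 20846 bp, only Antp, a Hox gene, had one, of 108.7, or 5.26%. In 13 of the 18 genes the lists of strongest regions of both replicates also held a summit. The exceptions were brm, caly and Rbbp5, with none among the strongest of replicate 3, and psq and tna, with none in replicate 2.

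**Figure D5:**
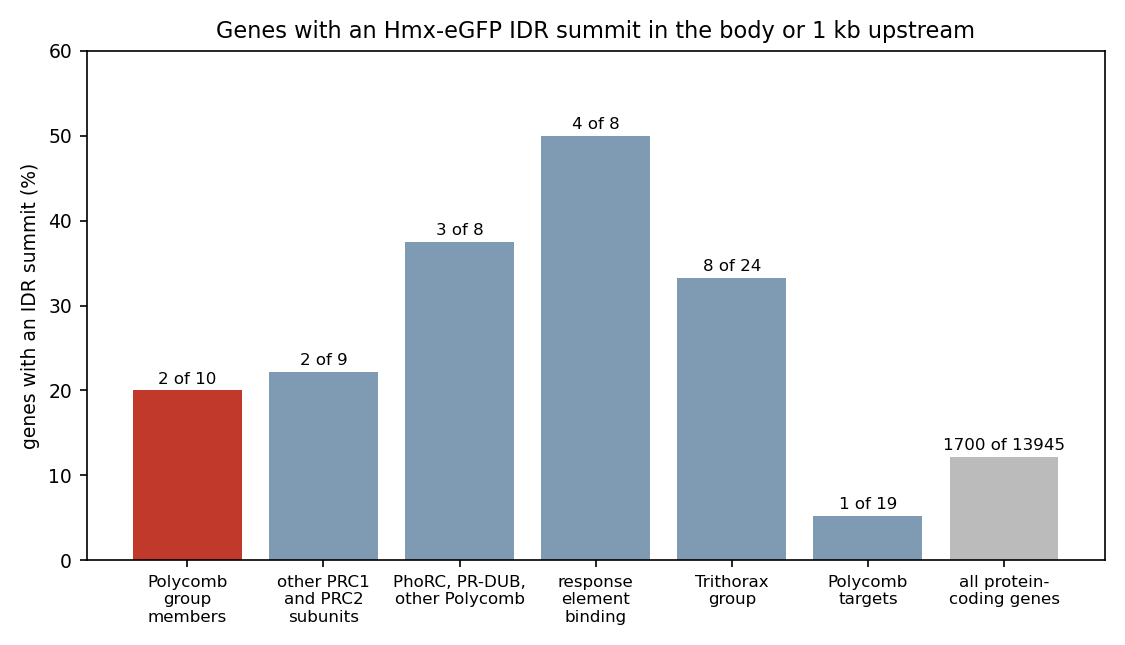
Share of genes to which an IDR summit was assigned (%, bars from 0) for the 10 Polycomb group genes, 5 further lists and all protein-coding genes, with the counts above each bar. The bars run from 5.26% at Polycomb targets to 50% at response element binding factors, with the 10 genes at 20% and all protein-coding genes at 12.2%.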

How the data were processed

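Hmx-eGFP ChIP-seq of 2 biological replicates of whole embryos was analysed from region lists. The authors deposited, per the file records, a dm6 list of 30000 regions for each replicate, one of 30000 for both pooled, and an optimal IDR set of 1607. Each region carries a signal value on the caller's scale and a −log10 q value, both deposited by the authors. How regions were called, reads aligned and the IDR set cut is not stated in the sources used here. The deposited dm3 lists were not used, since no dm3 genome was used here. No read counts were analysed, so depth is unknown and no interval is given. With 1 group and 2 samples no test was made.

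Regions on the mitochondrial genome were left out and the rest ranked by signal within each list, giving 29988 pooled, 29984 replicate 2 and 29996 replicate 3 regions. Summits were placed on genes of Ensembl release 115 (BDGP6.54) and on the RefSeq dm6 sequence, with 1-based coordinates. A gene had a region when a summit lay in its body or 1 kb upstream, so neighbours can share one. Replicate summits within 250 bp were matched. The assignment step was tested on simulated summits. The paralogues were aligned with blastn 2.17.0. Other steps used Python 3.11.15, numpy 2.4.6, pandas 2.3.3, pysam 0.24.0 and matplotlib 3.10.9. All 10 members are named, of the other lists every gene with an IDR summit, and any gene that shares a member summit. The members, the lists and the rules were chosen with earlier results of these data known. Alternatives were other gene assignments, the stronger 50% of the IDR set, a q value below 5%, each replicate alone, other matching distances and other motif windows.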

Additional observations from a re-analysis of the deposited data

How the results depend on the processing

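The 2 members with an IDR summit became 1, ph-p alone, when the upstream stretch was cut to 500 bp, when only the gene body counted, and when only the stronger 50% of the IDR set was used, because the ph-d summit lies 745 bp upstream and ranks 1216. The count was 2 within 1 kb of any start, against 10.4% of all protein-coding genes, and 2 by nearest start. In the pooled list at a q value below 5% it was 3, against 19.6%. From the strongest regions of 1 replicate it was 2 without replicate 2, against 11.8%, and 3 without replicate 3, against 12.6%. The added gene was Psc. The other listed genes with an IDR summit, 18, came to 17 with 500 bp upstream and 11 within 1 kb of any start. They came to 10 in the stronger 50% of the set, and to 17 from either replicate alone. Under the other rules the share of all protein-coding genes is not given, so lower counts need not be particular to these genes. The number of members with any region was 8, and 6 without replicate 2 or 9 without replicate 3. The strongest ph-p region stayed at rank 10, or 9 in each replicate, while the strongest ph-d region moved to rank 2277 with 500 bp upstream and that of Psc to 760 in replicate 2. The strongest Pc region, at rank 3272, was at 7443 within 1 kb of any start, 4955 in replicate 3 and 5698 in replicate 2, and that of Sce, at 10912, was at 5937 in replicate 2 and esc, at 19181, at 12776; with 500 bp upstream that of Psc was at 29526. All 4 member IDR peaks were matched in both replicates at 100 bp and by an overlap of 1 bp. With 100 bp either side of the summit 1 motif match was found in place of 0. No paired analysis was possible because there is only 1 group. Depth is unknown, and a gene without a listed region may still hold signal below the lists.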
